A study of Mus musculus with 12 samples.

Results

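Granulocyte genes were followed in mouse ovary through 8 transcripts: S100a8, S100a9, Ngp, Camp, Ltf, Lcn2, Elane and Mpo. They were selected by gene name among the transcript probes of the array, which gave 10 probes of 39429, for 8 of 30119 genes, and all their probes were kept. The ovaries came from 12 females of the inbred mouse strain C57BL/6J, aged 2 months, with 4 in each diet group. Early life females (E1 to E4) were fed a diet deficient in vitamin D during early life only, peripubertal females (P1 to P4) ate it only around puberty, and control females (C1 to C4) ate a normal diet. The ages at which each deficient diet began and ended are not given in the sources used here. RNA of whole ovary, labelled with Cy3 in odd-numbered and Cy5 in even-numbered samples, was hybridised to Agilent arrays, whose printed 60-base probes each report the amount of 1 transcript as fluorescence.

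Granulocytes are short-lived white blood cells, mostly neutrophils, that carry antimicrobial proteins in their cytoplasm and in granules made in sequence while the cell matures in bone marrow: azurophil granules first, then specific and gelatinase granules. In the ovary they are known to arrive with the blood and to collect around ovulation and in the regressing corpus luteum. Several of these proteins have other sources. Lactoferrin, from Ltf, is a secretion of oestrogen-stimulated epithelium of the mouse reproductive tract, lipocalin 2 is made by many epithelia, and S100a8 and S100a9 are also made by monocytes.

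Most of the differences below concern the probes of S100a8, S100a9, Ltf and Lcn2, whose sequences are given for that reason, each 5′ to 3′, whole for S100a8 and Ltf and as the first 30 bases for S100a9 and Lcn2. The S100a8 probe lies on chromosome 3, 90473778 to 90473837 on the plus strand, and the S100a9 probe on chromosome 3, 90496573 to 90496632 on the minus strand, with 22595 bases between the 2 genes in the RefSeq table. The Ltf probe lies on chromosome 9, 110942873 to 110942932 on the plus strand, and the Lcn2 probe on chromosome 2, 32240199 to 32240258 on the minus strand. Positions are those of the scanner files, on build mm9, for which no exon annotation was used here.
S100a8: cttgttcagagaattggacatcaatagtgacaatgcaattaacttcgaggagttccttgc
S100a9: gtctaaagggaatggcttactcaatggcct
Ltf: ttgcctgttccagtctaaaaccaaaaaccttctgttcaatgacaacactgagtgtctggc
Lcn2: aaggagcatctggagcctcttcttatttgg

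Camp has 2 probes, listed on chromosome 9 at 109749911 to 109749970 and 109749901 to 109749950, minus strand, positions that share 40 bases. By sequence, bases 11 to 60 of the first probe align with the first 50 of the second, and 48 of these are identical. The differences, A16G and T20C, are counted from 1 at the 5′ end of the first probe and give that probe's base first. Bases 11 to 40 of the first probe are shown, with the 30 aligned bases of the second, and the differing bases stand in capitals.
Camp probe 1: cagccAgagTagtaggcctgccttggcctg
Camp probe 2: cagccGgagCagtaggcctgccttggcctg

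The 12 samples had a median signal of 147.2 to 330.7 intensity units, 6.85 to 9.49 times the local background. The scanner software marks detection as a spot well above background, which held for 58.3% to 64.6% of probes. Each array held 2 samples of 1 group. Early life and control arrays shared a slide and peripubertal arrays lay on another, so that an effect of the slide and one of the peripubertal diet cannot be told apart. Markers of the tissue were present: 12 of 12 ovary genes, among them Amh, Inha, Cyp19a1 and Gdf9, were well above background in all 12 samples. The names of the early life and control samples are not settled. In the authors' deposited value table each of the 4 early life columns matched a scanner channel labelled control and each of the 4 control columns one labelled early life (correlation across probes 0.99977 to 0.99982), while its peripubertal columns matched no channel (at most 0.897). Names here are those of the scanner files, which leaves the sign of each difference between early life and control ovaries open, and with these arrays exchanged the difference of peripubertal from control becomes that of peripubertal from early life.

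The 8 genes did not behave as 1 group. Ltf was high in 3 of 4 early life ovaries and low in all peripubertal ones, and Lcn2 followed it in most samples. S100a8 and S100a9 ran in another order, with 3 of 4 peripubertal ovaries, and P3 above all, at the top. Camp and Elane were detected in every ovary, with groups that overlapped throughout, while Ngp was detected in 1 ovary and Mpo in none. Of the 8 genes, 6 were detected in at least 4 of 12 samples and entered the test across all 18559 genes (limma, Benjamini-Hochberg adjusted p under 0.05), and 0 of these 6 passed in any of the 3 comparisons. Of all genes 0.0377% passed in early life against control, 0.286% in peripubertal against control and 2.69% in early life against peripubertal ovaries.

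**Figure D1:**
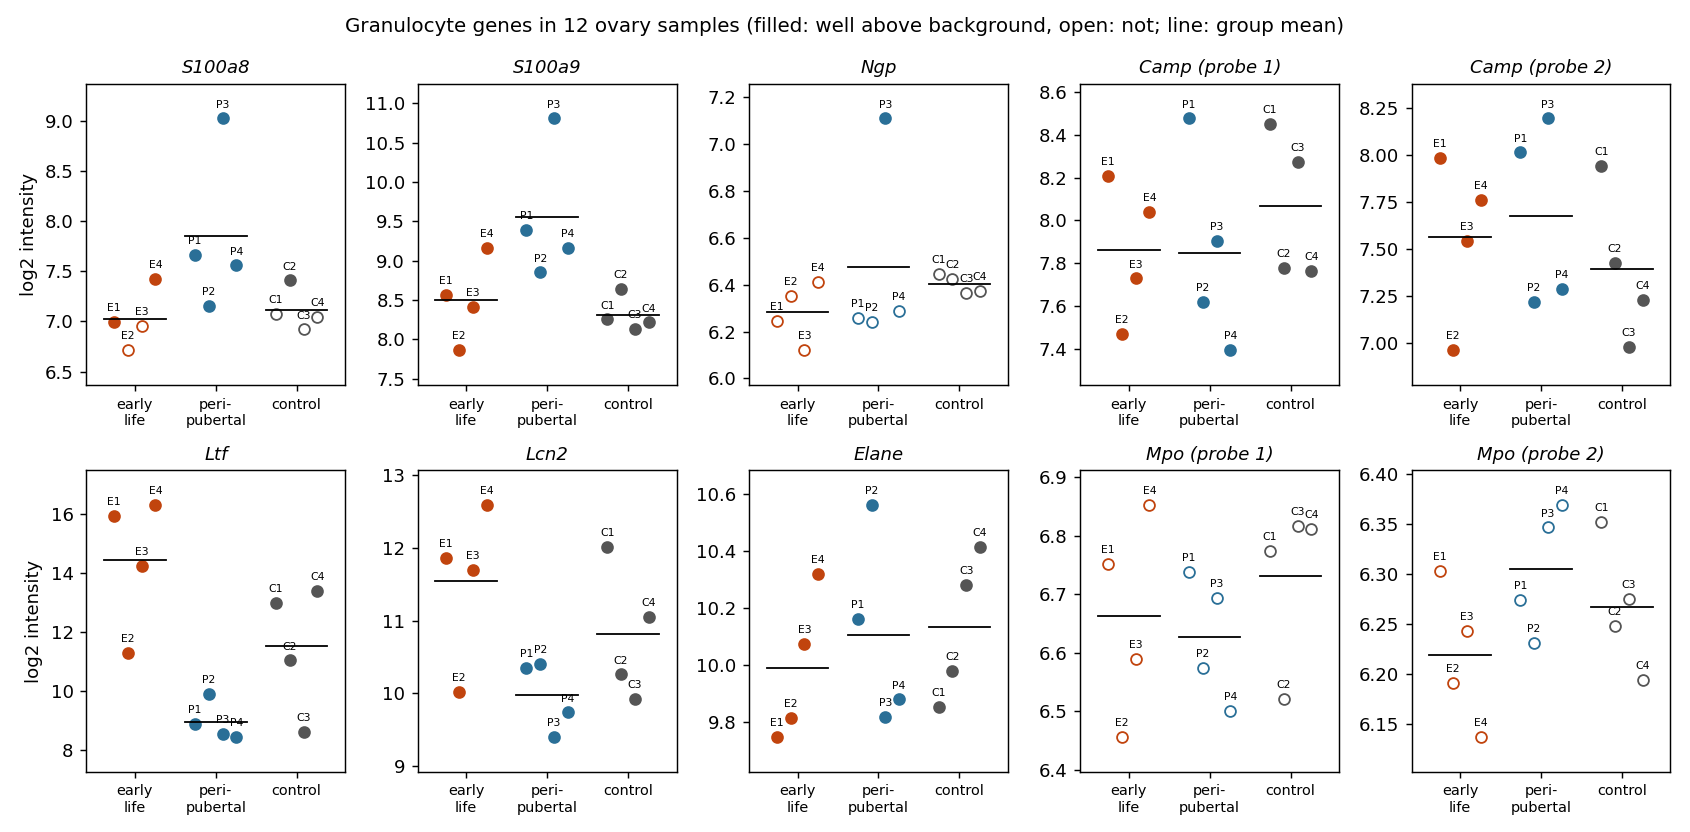
Log2 intensity of each of the 10 probes (1 panel each, own vertical axis) in early life, peripubertal and control ovaries. Points are samples, filled where the probe was well above background, and lines are group means. Ltf spans 8.44 to 16.28, and P3 is the highest sample for S100a8, S100a9 and Ngp.

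S100a8 and S100a9 encode the 2 subunits of calprotectin, the most abundant protein of the neutrophil cytosol, which withholds zinc and manganese from microbes. S100a9 measured 8.57, 7.86, 8.42 and 9.16 in E1 to E4, 9.39, 8.85, 10.81 and 9.16 in P1 to P4, and 8.25, 8.64, 8.14 and 8.22 in C1 to C4 (log2 intensity). Every peripubertal ovary lay above every control ovary (11.3% of all genes had no overlap between these groups), P3 stood highest of all 12, and E4 was level with P4. The probe was well above background in all 12 samples. S100a9 averaged 9.55 ± 0.86 in peripubertal and 8.31 ± 0.22 in control ovaries (SD, n = 4 each), a log2 difference of 1.24 ± 0.48 (SE, 95% interval 0.18 to 2.30), or 2.37-fold. It did not pass the test across all genes (limma, adjusted p = 0.366), and without P3 the difference was 0.83. The early life mean was 8.50 ± 0.53 (SD, n = 4), a difference of -1.05 ± 0.48 from peripubertal (adjusted p = 0.211), which was -0.64 without P3, and of 0.19 ± 0.48 from control (adjusted p = 0.868).

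S100a8 measured 6.99, 6.71, 6.96 and 7.43 in E1 to E4, 7.66, 7.16, 9.02 and 7.56 in P1 to P4, and 7.08, 7.41, 6.92 and 7.04 in C1 to C4. It was well above background in 2 of 4 early life, 4 of 4 peripubertal and 1 of 4 control ovaries. P3 was again the highest, and the groups overlapped only through P2, which lay under C2 and E4. Peripubertal ovaries averaged 7.85 ± 0.81 and control ovaries 7.11 ± 0.21 (SD, n = 4 each), a difference of 0.74 ± 0.40 (SE, adjusted p = 0.531) that was 0.35 without P3. Early life ovaries averaged 7.02 ± 0.30 (SD, n = 4), a difference of -0.83 ± 0.40 from peripubertal (adjusted p = 0.243), which was -0.44 without P3, and -0.09 ± 0.40 from control (adjusted p = 0.933). Most early life and control spots were not well above background, so these differences rest on dim signals. S100a8 reached the required 4 samples only with its peripubertal spots, in which it is high, so its tests are given as a description only. When the scanner software's own processed signals were used, its difference from control became 1.65 in peripubertal ovaries (adjusted p = 0.441) and early life differed from peripubertal ovaries by -1.78 (adjusted p = 0.178). In a whole ovary, fewer cells of a type and less RNA per cell cannot be told apart, for these genes and for those that follow.

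The 2 subunits kept 1 order at the top, P3, P1, P4 and E4, and correlated at r = 0.97 over the 12 samples (Pearson, across samples that share arrays in pairs). P3 stood apart from all other samples on both genes, and S100a8 was well above background in only 7 of 12. No correlation without P3 was computed, here or for the genes named next. Of 12192 other genes with a current symbol, those most like S100a9 over the 12 samples were Tssk1 (r = 0.93), Lrsam1 (0.90) and Kif3b (0.89), and those most like S100a8 were Kif3b (0.94), Tssk1 (0.92) and Hoxa11os (0.91).

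**Figure D2:**
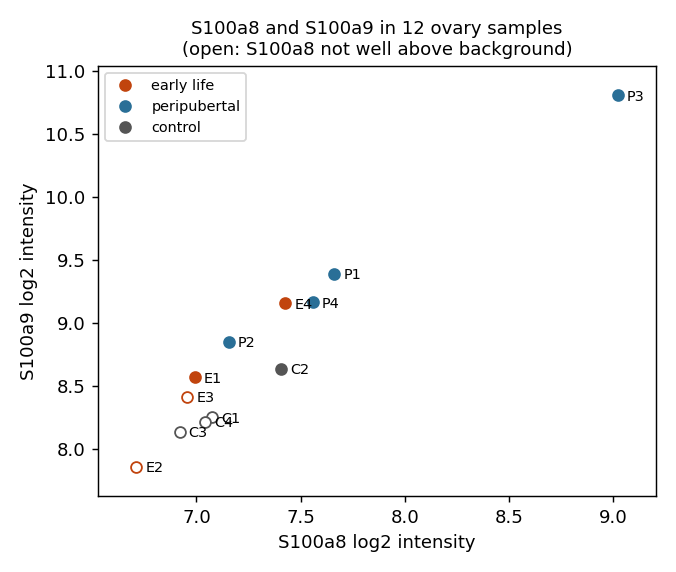
S100a9 against S100a8, both as log2 intensity, in the 12 ovaries, coloured by group, with open points where S100a8 was not well above background. P3 (9.02 and 10.81) stands apart from the other 11 samples, P1 and P4 come next, and P2 (7.16 and 8.85) lies lower, under E4 on both axes.

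Markers of other blood-borne cells were set beside this pair, and their part in it was not tested. Of 11 macrophage markers 10 were tested, and Cd163 was not well above background in any sample. The mean of these 10, in log2 units around the average of all 12 ovaries, was -0.71 to -0.42 in early life, 0.23 to 0.71 in peripubertal and -0.45 to 0.47 in control ovaries. In peripubertal against control ovaries 0 of 10 passed, and in early life against peripubertal ovaries 6 of 10 were lower (Adgre1, C1qa, C1qb, Cx3cr1, Fcgr1 and Mrc1), where 2.69% of all genes passed in either direction. Of these 6, 0 were called with either marker mean used below as a covariate, 0 when E1, E3, P1, P2 or P4 was left out, 1 without C2 and 2 without C3. Under each of the other alternatives 5 or 6 were called, and their sign stayed the same. Fcgr1 was above background in 1 early life, 4 peripubertal and 2 control samples. It entered the test only with its peripubertal spots, in which it is high, so it is counted here as a description only. The macrophage mean above, which holds Fcgr1, is a description too. Of 13 eosinophil, basophil and mast cell markers 6 were tested, with a mean of -0.50 to -0.16 in early life, 0.23 to 0.85 in peripubertal and -0.38 to 0.09 in control ovaries. This mean holds Cma1, above background in 0 early life, 4 peripubertal and 1 control samples. Cma1 entered the test only with its peripubertal spots, in which it is high, so this mean is a description only. The defining genes of eosinophils, Epx and Prg2, and of basophils, Mcpt8, were at background in all 12. In both lists P2 was the highest sample, whereas S100a9 was highest in P3. Of 7 lymphocyte markers 5 were tested, and 0 passed in any comparison. Their mean was -0.20 to 0.09 in early life, -0.11 to 0.02 in peripubertal and -0.01 to 0.10 in control ovaries. Of 7 red blood cell markers 5 were tested, with a mean of -0.41 to 1.21 in early life, -0.81 to 0.65 in peripubertal and -1.03 to 0.47 in control ovaries, and 0 of 5 passed in any comparison. With the red blood cell mean as a covariate the S100a9 difference of peripubertal from control ovaries was 1.12 ± 0.54 (SE, adjusted p = 0.582), and with the mean of the oviduct markers described below it was 1.35 ± 0.53 (adjusted p = 0.364).

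Ltf, an iron-binding protein of specific granules and of epithelial secretions, measured 15.91, 11.29, 14.22 and 16.28 in E1 to E4, 8.87, 9.89, 8.55 and 8.44 in P1 to P4, and 12.97, 11.03, 8.62 and 13.39 in C1 to C4. All early life ovaries lay above all peripubertal ones (20.7% of all genes had no overlap between these groups), and the control ovaries spread over both, from C3 among the lowest to C4 near E3. In signal units before normalization the lowest spot read 255.6 (P3) and the highest 115194 (E4), none of them saturated. Across the 12 ovaries Ltf spanned 7.85 log2 units, against a median span of 0.71 for all genes tested. Only 1 of 18559 genes, Ovgp1, which encodes an oviduct glycoprotein, spanned more (9.26).

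Ltf averaged 14.42 ± 2.27 in early life, 8.94 ± 0.66 in peripubertal and 11.50 ± 2.18 in control ovaries (SD, n = 4 each). Early life exceeded peripubertal ovaries by 5.49 ± 1.61 (SE, 95% interval 1.91 to 9.07), or 44.8-fold, which missed the threshold (limma, adjusted p = 0.0909). The adjusted p was 0.0261 without E2, the lowest early life sample, 0.0480 without the dye term and 0.0246 without the array block, so the call rests on how these are treated. Early life against control ovaries gave 2.92 ± 1.61 (adjusted p = 0.433), with the early life sample higher in 14 of 16 pairs, and peripubertal against control ovaries gave -2.56 ± 1.61 (adjusted p = 0.586). With 1 sample left out the first ranged from 1.77 (without C3; 1.93 without E1) to 4.22 (without E2) and the second from -3.72 (without C3) to -1.68 (without C4). The early life samples alone spanned 4.99 and the control samples 4.77, more than these last differences.

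Lcn2, a siderophore-binding protein of specific granules, measured 11.85, 10.02, 11.69 and 12.58 in E1 to E4, 10.35, 10.40, 9.40 and 9.74 in P1 to P4, and 12.01, 10.26, 9.93 and 11.05 in C1 to C4. The ovaries with the 5 highest values, E4, C1, E1, E3 and C4, were also the 5 highest for Ltf, and E2 lay within the peripubertal range. Lcn2 averaged 11.54 ± 1.08 in early life, 9.97 ± 0.49 in peripubertal and 10.81 ± 0.93 in control ovaries (SD, n = 4 each). The differences were 1.56 ± 0.71 for early life against peripubertal (SE, adjusted p = 0.212), 0.72 ± 0.71 for early life against control (adjusted p = 0.640) and -0.84 ± 0.71 for peripubertal against control (adjusted p = 0.707). Single samples moved the last 2: early life against control ranged from 0.32 (without E4) to 1.24 (without E2), with 0.34, 0.45, 0.46 and 1.15 without C3, E1, C2 and C1, and peripubertal against control from -1.22 (without C3) to -0.41 (without C1). Ltf and Lcn2 correlated at r = 0.92 over the 12 samples, and each of them with S100a8 and S100a9 at -0.42 to -0.32.

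Markers of oviduct epithelium, the lining of the tube that adjoins the ovary, varied with Ltf and Lcn2. Of 12 such markers 10 were tested, and Cldn4 and Muc1 were well above background in too few samples. Their mean, as a log2 deviation, was 2.58, -0.56, 1.66 and 2.90 in E1 to E4, -1.64, -0.77, -1.80 and -1.54 in P1 to P4, and 0.76, -1.14, -1.45 and 1.04 in C1 to C4. The 6 samples highest in Ltf, E4, E1, E3, C4, C1 and E2, were the 6 highest in this mean, in the same order, and for Lcn2 the 5 highest samples were shared. With outlier spots left out, Ovgp1 entered the mean in 2 and Epcam in 3 of the 4 control samples, so the placing of controls rests on unequal sets of markers. Of the 10 markers 0 passed against control in either deficient group, and in early life against peripubertal ovaries 1 passed, Wfdc2 (4.50 ± 1.01, SE, adjusted p = 0.0481, where 2.69% of all genes passed). Over 24 alternatives Wfdc2 was called in 9, with an adjusted p of 0.0113 to 0.177. With this mean as a covariate Ltf differed by 0.83 ± 0.54 between early life and peripubertal ovaries (SE, adjusted p = 0.494), by 0.14 ± 0.45 between early life and control and by -0.69 ± 0.43 between peripubertal and control. Lcn2 then differed by -0.38 ± 0.38, -0.44 ± 0.32 and -0.06 ± 0.30 in the same order of comparisons, the first 2 with the opposite sign. The marker mean itself differed between groups, at 1.64 in early life, -1.44 in peripubertal and -0.20 in control ovaries on average. Group and marker level therefore cannot be told apart by this fit, and the part of these markers was not tested. The genes most like Ltf over the 12 samples were Ces1f (r = 0.99), the epithelial tight junction gene Cldn7 (0.98) and the secretory epithelial gene Agr3 (0.98), and those most like Lcn2 were Sftpd, Mapk15 and Adam28 (0.98, 0.98 and 0.97), Sftpd being a collectin of mucosal surfaces.

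**Figure D3:**
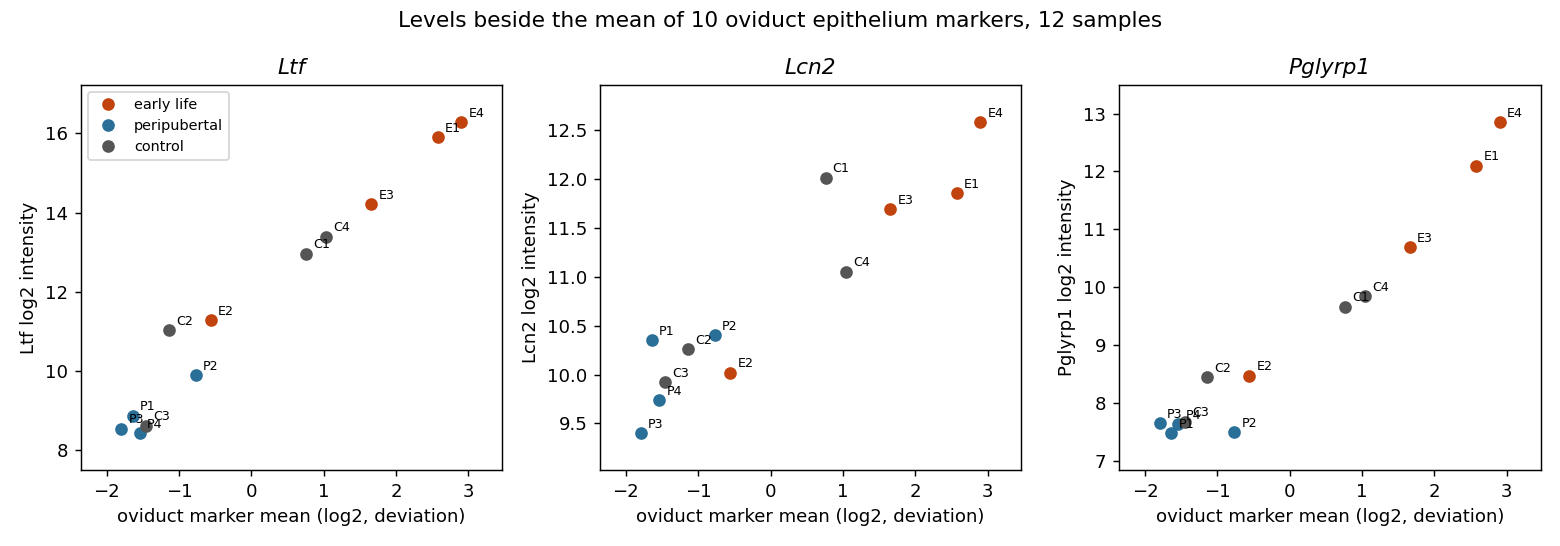
Log2 intensity of Ltf, Lcn2 and Pglyrp1 against the mean of 10 oviduct epithelium markers (log2 deviation from the mean of 12 samples), coloured by group. E4, E1 and E3 lie at the upper right in all 3 panels and the peripubertal ovaries at the lower left, with C4 and C1 between them for Ltf and Pglyrp1.

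The mean of markers of the epithelium that covers the ovary's surface was highest in the same ovaries. All 8 genes listed (Krt7, Krt8, Krt18, Krt19, Msln, Upk1b, Upk3b and Cdh1) were tested, and their mean log2 deviation was 1.28, -0.77, 0.68 and 1.34 in E1 to E4, -0.54, -0.80, -0.66 and 0.0091 in P1 to P4, and 0.37, -0.84, -0.32 and 0.33 in C1 to C4. Its 5 highest samples, E4, E1, E3, C1 and C4, were the 5 highest for Ltf and for Lcn2. Of the 8 genes 0 passed in any comparison. In early life against peripubertal ovaries 7 of 8 had positive values, with a median of 1.27 against -0.03 for all genes. The genes differed in size: Cdh1 (2.30), Krt18 (2.12), Krt19 (1.87) and Krt8 (1.66) had the largest values. Krt7 (0.88), Upk3b (0.61) and Msln (0.26) had smaller ones, and Upk1b was negative (-0.34). The part of these markers in the Ltf and Lcn2 differences was not tested.

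Camp encodes the cathelicidin peptide of specific granules. In humans this gene is a direct target of the vitamin D receptor, a response that the mouse gene is known to lack. Probe 1 measured 8.21, 7.47, 7.73 and 8.04 in E1 to E4, 8.48, 7.62, 7.90 and 7.39 in P1 to P4, and 8.45, 7.78, 8.27 and 7.77 in C1 to C4, and the 3 groups overlapped throughout. This span of 1.09 log2 units was wider than the median of all genes, with 25.3% of genes spanning more. Probe 2 measured 7.99, 6.96, 7.54 and 7.76 in E1 to E4, 8.01, 7.22, 8.20 and 7.29 in P1 to P4, and 7.94, 7.43, 6.98 and 7.23 in C1 to C4. Both probes were well above background in all 12 samples, but C3 was among the highest samples on probe 1 and among the lowest on probe 2. On probe 1, the brighter, the differences were -0.21 ± 0.23 for early life against control (SE, adjusted p = 0.678), -0.22 ± 0.23 for peripubertal against control (adjusted p = 0.758) and 0.012 ± 0.23 for early life against peripubertal (adjusted p = 0.981). The last 2 turned sign with the mean of both probes (0.033 and -0.052), so no direction can be given. The 95% intervals on probe 1, -0.71 to 0.30, -0.72 to 0.28 and -0.49 to 0.51, leave room for differences of up to about that size either way. The genes most like Camp were Efhd2 (r = 0.95), Tpi1 (0.92) and Rab36 (0.91).

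Ngp, neutrophilic granule protein, is related to the cathelicidins and is made during neutrophil maturation. Its probe, on chromosome 9 from 110324266 to 110324814, plus strand, was well above background in 1 of 12 samples, P3, at 7.11, where the other peripubertal samples measured 6.24 to 6.29. The early life samples measured 6.12 to 6.41 and the control samples 6.37 to 6.45, all not well above background. P3 was thus highest for Ngp as it was for S100a8 and S100a9, and no fold is given because the lower bound was under 1.

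Elane encodes neutrophil elastase, a serine protease of azurophil granules. It measured 9.75, 9.81, 10.07 and 10.32 in E1 to E4, 10.16, 10.56, 9.82 and 9.88 in P1 to P4, and 9.85, 9.98, 10.28 and 10.41 in C1 to C4. The 3 groups overlapped, and the span of 0.82 log2 units was close to the median of all genes, with 41.3% of genes spanning more. The differences were -0.14 ± 0.19 for early life against control (SE, adjusted p = 0.744), -0.03 ± 0.19 for peripubertal against control (adjusted p = 0.976) and -0.12 ± 0.19 for early life against peripubertal (adjusted p = 0.747). The largest difference that any of the 3 95% intervals includes is 0.58 in size. The genes most like Elane were Vmn2r116, Ccbe1 and Gm11627 (r = 0.88, 0.88 and 0.87). Mpo encodes myeloperoxidase, the peroxidase of the same granules. Its 2 probes, on chromosome 11 at 87617840 to 87617899 and at 87615121 to 87615180, plus strand, were not well above background in any of the 12 samples (log2 6.46 to 6.85 and 6.14 to 6.37). A steady Elane signal thus stood beside an Mpo signal at background.

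**Figure D4:**
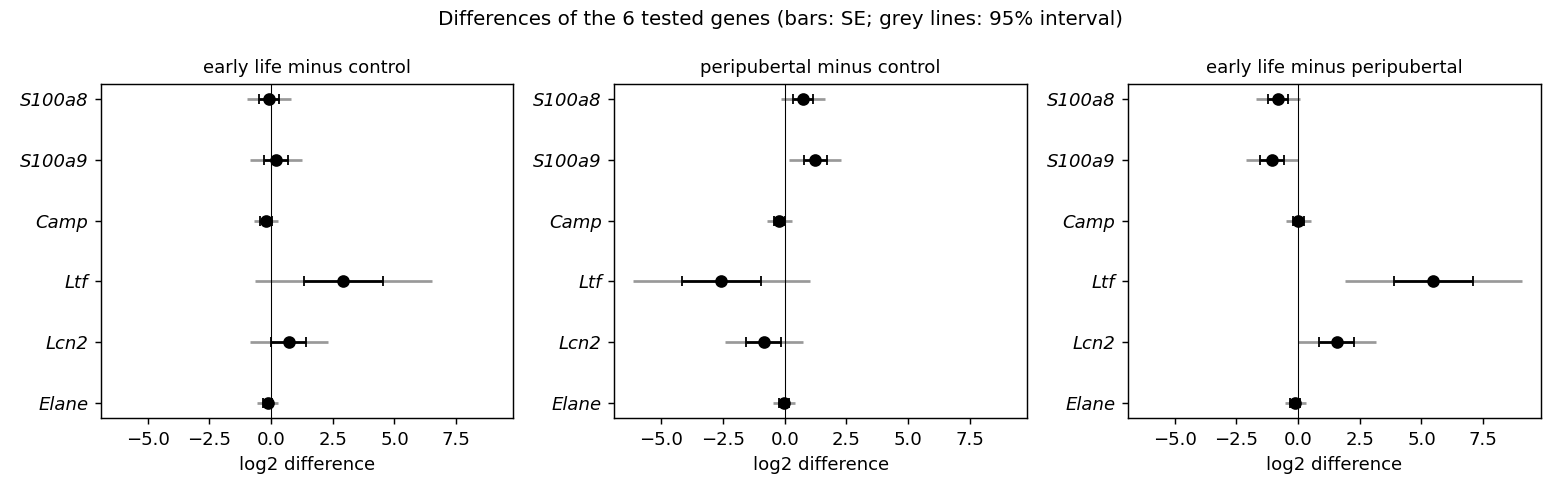
Log2 differences of the 6 tested genes in the 3 comparisons, early life minus control, peripubertal minus control and early life minus peripubertal (points, SE as black bars, 95% intervals as grey lines). Intervals lie clear of 0 for S100a9 in peripubertal minus control (0.18 to 2.30) and for Ltf in early life minus peripubertal (1.91 to 9.07), neither of which passed after adjustment.

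Early life against control ovaries addresses what differs in the adult organ after a deficiency that ended early. Ltf was the member with the largest value (2.92) and none passed: 0 of 6 were called, where 7 of 18559 genes were (0.0377%). At an unadjusted p under 0.05 the count was 0 of 6, against 13.9% of all genes, and the groups did not overlap in 0 of 6, against 13.6%. The median difference of the 6 was 0.05 and that of all genes -0.02.

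Peripubertal against control ovaries addresses the same for a deficiency around puberty. S100a9 and S100a8 were above control, while Ltf, Lcn2 and Elane had values below it. S100a8 entered the test only with its peripubertal spots, in which it is high, so its value is a description only. Camp was below control on probe 1 only, so no direction is given for it. Of the 6 members 0 were called, where 0.286% of all genes were. S100a9 was the 1 of 6 with an unadjusted p under 0.05 (11.4% of all genes) and the 1 of 6 whose groups did not overlap (11.3%). The median of the 6 was -0.12 and that of all genes 0.01. Both deficient groups are set against the same 4 control samples.

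Between the deficient groups, early life against peripubertal, Ltf and Lcn2 had positive and S100a9, S100a8 and Elane negative values. The value of S100a8 is again a description only. Camp was positive on probe 1 only, so no direction is given for it. Of the 6 members 0 were called, where 2.69% of all genes were. Ltf was the 1 of 6 with an unadjusted p under 0.05 (23.9% of all genes) and the 1 of 6 whose groups did not overlap (20.7%). The median of the 6 was -0.05 and that of all genes -0.03. In all 3 comparisons these counts of 0 or 1 of 6 are near the shares of all genes.

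Other genes of the granulocyte were read from lists by role. Among other late granule and secreted proteins 7 of 11 were tested, and none passed apart from Stfa2l1, which is only described here. Stfa2l1, a stefin inhibitor of cysteine proteases, was not well above background in any early life or peripubertal sample and was in all 4 control samples. It measured 6.49, 6.55, 6.61 and 6.63 in E1 to E4, 6.41, 6.43, 6.54 and 6.60 in P1 to P4, and 7.31, 7.18, 7.52 and 7.30 in C1 to C4, with every control sample above all others. Of all genes 13.6% had no overlap between early life and control ovaries, and 11.3% between peripubertal and control ovaries. Stfa2l1 entered the test only through the control samples, in which it is high. Its test is therefore not read, and its values are given as a description. It was at least 1.57-fold lower in early life and at least 1.30-fold lower in peripubertal than in control ovaries. The stefin A genes are close copies of one another, so that the transcript behind this probe is uncertain, and Stfa1, Stfa2 and Stfa3, above background in 2, 2 and 0 samples, were not tested.

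Pglyrp1, a peptidoglycan recognition protein of neutrophil granules, measured 12.10, 8.47, 10.69 and 12.85 in E1 to E4, 7.48, 7.49, 7.64 and 7.63 in P1 to P4, and 9.66, 8.44, 7.67 and 9.84 in C1 to C4. Its 6 highest samples were those of Ltf, in the same order. The early life and peripubertal groups did not overlap (true of 20.7% of all genes). The difference between them was 3.47 ± 1.09 (SE, adjusted p = 0.105). Hp, haptoglobin, which binds free haemoglobin, averaged 12.48 ± 1.31 in early life, 10.89 ± 1.11 in peripubertal and 11.39 ± 1.08 in control ovaries (SD, n = 4 each), and no comparison passed (adjusted p 0.352 to 0.883). Cd177, a neutrophil surface protein, differed by at most 0.12 in size between groups. Of 3 other azurophil granule genes, Prtn3, encoding proteinase 3, was tested and did not pass (adjusted p 0.814 to 0.976), while Ctsg and Ms4a3 were at background in all 12 samples.

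Among granulocyte receptors 6 of 13 were tested and 0 passed. Csf3r, the G-CSF receptor, was steady at 13.86 ± 0.29 in early life, 13.72 ± 0.24 in peripubertal and 13.58 ± 0.26 in control ovaries (SD, n = 4 each). Itgam, the integrin subunit CD11b of neutrophils and macrophages, averaged 13.27 ± 0.23 in early life, 13.75 ± 0.21 in peripubertal and 13.19 ± 0.24 in control ovaries (SD, n = 4 each). All peripubertal samples lay above all others (11.3% of all genes had no overlap between peripubertal and control, and 20.7% between early life and peripubertal ovaries). Itgam's values, those of the brightest of its 3 probes, gave a difference of 0.56 ± 0.17 from control (SE, adjusted p = 0.264). Itgb2, its partner subunit, differed by -1.11 ± 0.38 and Trem1, a receptor that amplifies inflammation, by -0.39 ± 0.16 between early life and peripubertal ovaries (adjusted p = 0.130 and 0.185). Of the receptors that define mouse neutrophils, Cxcr2 was at background in all 12 samples and Ly6g was above it in 2, both early life. Among others not tested, Cxcr1 was above background in 2 samples, both peripubertal, Fpr2 in 1 peripubertal sample, Fpr1 in 1 peripubertal and 1 control sample, and Clec4e in 0.

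Of 4 transcription factors and growth factors of granulocyte formation 3 were tested and 0 passed. Gfi1, a repressor needed for neutrophil maturation, differed by 1.04 ± 0.45 between peripubertal and control ovaries (SE, adjusted p = 0.428), Cebpa by -0.39 ± 0.16 between early life and control ovaries (adjusted p = 0.327), and Cebpe, the regulator of specific granule genes, by at most 0.18 in size. Of 4 chemoattractants for neutrophils Cxcl1 and Cxcl5 were tested, and neither passed (adjusted p 0.380 to 0.983). Among the 6 eosinophil, basophil and mast cell genes tested, Cma1 aside, only Cpa3 was called lower in early life than in peripubertal ovaries. Of all genes 2.69% passed in this comparison in either direction, and 20.7% had no overlap between these groups. Cpa3, mast cell carboxypeptidase, measured 6.97, 7.04, 7.09 and 7.45 in E1 to E4 and 8.08, 8.57, 8.51 and 8.28 in P1 to P4, with no overlap and a difference of -1.22 ± 0.25 (SE, adjusted p = 0.0405), and it was called in 13 of 24 alternatives (adjusted p 0.00952 to 0.222). Cma1, mast cell chymase, was not well above background in any early life sample and was at least 1.75-fold lower there than in peripubertal ovaries. It entered the test only through the peripubertal samples, 4 of the 5 in which it was above background. Its test is therefore not read, and this too is a description. Tpsb2 and Mcpt4, mast cell tryptase and chymase, differed by -0.60 ± 0.14 and -0.57 ± 0.18 in the same comparison (adjusted p = 0.0520 and 0.110).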

How the data were processed

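Intensity in the authors' deposited scanner files, a mean signal and a median local background per spot, is not normalized and was read with Agilent Feature Extraction 11.0.1.1 per the file headers, with probe positions on build mm9. Values in the deposited value table are on a log2 scale, with each column's median at 0. How the authors scaled them is not given in the sources used here, and it served only as an alternative and to check the sample names. Its 4 peripubertal columns, which match no array, were not used. Probes were named through RefSeq accessions (27234 of 39429), symbols (3576) or synonyms (565), the rest as in the file (8054).

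With R 4.3.3 and limma 3.58.1 (helper packages statmod, at 1.5.0, and data.table, at 1.17.8), normexp with an offset of 50 corrected the background, arrays were normalized by loess and Aquantile, and each channel was taken as a log2 value. Outlier spots were left out (3.22% of values missing, none in the 10 granulocyte probes). The mean of a marker list was taken over the genes with a value in that sample. Probes were kept (23791) if 4 or more of 12 samples were well above background and each group had at least 2 values, and the brightest stood for its gene (18559). A single limma model held diet and dye, with a random effect of array (correlation 0.288) and Benjamini-Hochberg adjustment over all genes. It was also run on data simulated with the same array correlation and spread, which cannot show whether the model suits these arrays. A group with no sample above background gives a lower bound of a fold. Each of its samples enters at its own value or at the lowest value that counts as detected in that sample, whichever is higher. Precision is limited by having 6 arrays. Of 12 pairs of same-numbered samples 3 had deviations correlated over 0.1, so the numbers were not taken as pairs. The genes and lists were chosen with earlier results of these data known. Named genes are the 8 members, the 3 most like each, list genes with an unadjusted p under 0.05, and the 3 brightest of a list; Stfa2l1's relatives, Ovgp1 and genes at background were named after their values were seen. Alternatives were other background, scaling, filter and probe rules, models with and without dye, array, replicate or marker terms, and each sample left out.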

Additional observations from a re-analysis of the deposited data

Results flagged for a closer look

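Of 30 groups of 4 samples, for 10 probes in 3 groups, 2 held a sample far from the others by Dixon's test at the 95% level, where chance flags about 1 in 20. Ngp read 7.11 in P3 and 6.24 to 6.29 in the other peripubertal ovaries, and P3 was the only sample in which this probe was well above background. One Mpo probe, on chromosome 11 from 87617840, read 6.52 in C2 and 6.77 to 6.82 in the other control ovaries, all not well above background.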

How the results depend on the processing

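The count of granulocyte genes called was 0 in each comparison under all alternatives run, except that Ltf was called in early life against peripubertal ovaries (1 of 6) without the dye term, without the array block and without E2, so that leaving out 1 sample gave 0 to 1. In early life against control ovaries 3 of 4 same-numbered pairs correlated over 0.1 (0.071 to 0.54), and in each of the other comparisons 0 of 4 did, so that no comparison met the rule that every pair should. With the replicate number as a block Ltf had an adjusted p of 0.0560 in that comparison, and 0 of 6 genes were called in each. On the deposited value table, where the early life and control names are exchanged, all 6 early life differences from control turned sign: S100a8 0.18, S100a9 -0.26, Camp 0.23, Ltf -2.87, Lcn2 -0.65 and Elane 0.17. With the oviduct mean as covariate Lcn2 turned to -0.44 (early life against control) and -0.38 (early life against peripubertal), Camp to -0.25 in the second of these and Elane to 0.042 (peripubertal against control). With the red blood cell mean S100a9 turned to -0.026 (early life against control) and Camp to -0.088 (early life against peripubertal), and with the mean of its probes Camp turned to 0.033 (peripubertal against control) and -0.052 (early life against peripubertal). Leaving out 1 sample turned values near 0: early life against control ranged from -0.29 to 0.067 for S100a8 and from -0.11 to 0.37 for S100a9, peripubertal against control from -0.14 to 0.062 for Elane, and early life against peripubertal from -0.17 to 0.19 for Camp and from -0.21 to 0.00026 for Elane. The reversal on the deposited value table follows from the exchanged names, and the cause of the other changes was not tested.

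Over all genes, calls in early life against control ovaries (7) became 127 with no array block, 35 with no dye term, 21 from the signals as processed by the software, 3 with no detection filter, 1 with outlier spots kept, 0 with detection in all samples, the mean of probes, the replicate block or either covariate, and 0 to 102 without 1 sample. In peripubertal against control ovaries (53) they became 154 (no array block), 81 (no dye term), 21 (no detection filter), 26 (outlier spots kept), 15 (detection in all samples), 20 (mean of probes), 14 (replicate block), 0 and 2 (oviduct and red blood cell means), and 0 to 30 without 1 sample. In early life against peripubertal ovaries (500) they became 2100 (no array block), 759 (no dye term), 303 with the mean of probes, 3 and 22 with the oviduct and red blood cell means, and 2 to 1575 without 1 sample. Signals of S100a8, Ngp and Mpo near background limit what can be read from them, 4 ovaries a group and arrays of 1 group each limit the rest, and an effect of diet cannot be told apart from slide for the peripubertal group.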
